A study of Mus musculus with 18 samples.

Results

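Type II cells isolated from Cebpa-deleted mice were compared after 24 h and before (0 h) hyperoxia, a high concentration of inspired oxygen. The comparison uses 6 of the series' 18 expression arrays, chosen by their titles: Cebpa-deleted replicates 1, 2 and 3 at 0 h and replicates 1, 2 and 4 at 24 h. All samples are labelled isolated alveolar type II cells of mice of 7-8 wk. In the Cebpa-deleted mice the floxed Cebpa gene was deleted in the Clara cells of the airways from early gestation on, and in type II cells from near term on. Their genotype label is CCSP/rtTA/CEBPa(flx/flx), so the CCSP (Clara cell secretory protein) promoter drives the rtTA activator. That label names no Cre. The controls, with 3 arrays at 0 h and 3 at 24 h, were littermates that carry the same floxed gene and lack either the rtTA or the Cre transgene, so both genotypes have floxed alleles. The 3 Cebpa-deleted arrays at 2 h (replicates 2, 3 and 4) serve as the time between. Every sample description states air, and hyperoxia at the later times rests on the series design. Whether samples are separate animals is not labelled, so p-values reflect only how far these samples spread, which may be technical.

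Type II cells line the alveolus, make and store surfactant, and give rise to the flat type I cells through which gas is exchanged. Surfactant is mostly phospholipid with cholesterol and a few proteins, so these cells depend on lipid synthesis driven by the SREBP factors. C/EBPα (Cebpa) is a leucine zipper transcription factor known for promoting lipid storage and differentiation in fat, liver and lung, and high oxygen injures the alveolar lining through reactive oxygen species.

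Cholesterol synthesis showed the lowest median change of the 40 gene lists described here, and RefSeq promoters of its genes are shown first. Whether their sequence bears on the change was not tested. Each is 300 bases, from 250 before to 50 after the first listed start, in GRCm38.p6. Capitals mark CCAAT on either strand (ATTGG when read on the other strand), the box bound by NF-Y, and the sterol response element TCACNCCAC on either strand. The first 4 belong to the members with the largest falls, and Hmgcs1, which makes the pathway's entry product HMG-CoA, is the only member in which the sterol letters were found.
Tm7sf2 (chr19:6067801-6068100, reverse strand): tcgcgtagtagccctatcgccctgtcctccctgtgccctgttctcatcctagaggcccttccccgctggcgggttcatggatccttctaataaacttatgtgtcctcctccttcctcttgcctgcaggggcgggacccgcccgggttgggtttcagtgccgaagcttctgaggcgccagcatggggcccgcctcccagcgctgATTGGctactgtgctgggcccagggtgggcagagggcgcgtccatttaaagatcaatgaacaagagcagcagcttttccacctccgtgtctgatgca
Nsdhl (chrX:72918271-72918570, forward strand): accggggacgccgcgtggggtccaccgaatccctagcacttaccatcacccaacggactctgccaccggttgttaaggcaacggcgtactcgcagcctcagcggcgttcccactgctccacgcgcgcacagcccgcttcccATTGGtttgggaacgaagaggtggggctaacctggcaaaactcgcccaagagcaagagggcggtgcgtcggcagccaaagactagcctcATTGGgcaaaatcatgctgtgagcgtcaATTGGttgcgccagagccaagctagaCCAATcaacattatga
Lss (chr10:76531355-76531654, forward strand): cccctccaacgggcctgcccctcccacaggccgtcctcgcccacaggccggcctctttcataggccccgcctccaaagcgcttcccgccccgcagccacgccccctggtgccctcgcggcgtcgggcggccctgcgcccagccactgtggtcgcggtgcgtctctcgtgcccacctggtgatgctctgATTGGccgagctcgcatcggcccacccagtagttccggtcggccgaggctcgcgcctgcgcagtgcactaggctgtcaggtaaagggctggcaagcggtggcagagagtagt
Cyp51 (chr5:4104648-4104947, reverse strand): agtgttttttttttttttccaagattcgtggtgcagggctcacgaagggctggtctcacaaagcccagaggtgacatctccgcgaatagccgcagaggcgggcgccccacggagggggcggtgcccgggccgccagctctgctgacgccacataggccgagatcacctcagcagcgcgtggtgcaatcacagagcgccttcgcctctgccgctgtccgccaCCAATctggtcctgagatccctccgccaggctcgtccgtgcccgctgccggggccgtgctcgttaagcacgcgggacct
Hmgcs1 (chr13:119690101-119690400, forward strand): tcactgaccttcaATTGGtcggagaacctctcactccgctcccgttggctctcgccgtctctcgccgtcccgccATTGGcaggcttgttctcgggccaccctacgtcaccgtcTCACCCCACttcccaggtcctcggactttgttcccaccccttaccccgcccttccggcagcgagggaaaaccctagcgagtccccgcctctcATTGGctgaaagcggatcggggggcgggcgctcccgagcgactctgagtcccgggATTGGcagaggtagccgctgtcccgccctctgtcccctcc
CCAAT was present in 13 of the 14 list members with a promoter in the table, including 12 of the 13 of these that fell, against 37.9% of 27025 promoters of this length. The sterol element was present in 1 of 14 against 1.2% of all promoters. Dhcr7, which fell, had 0 CCAAT boxes, and Pmvk, which did not pass, had 1. Motifs were also searched in other lists. Among these, the C/EBP palindrome TTNCNNNAA was present in 11 of 18 acute phase and NF-κB target promoters, against 36.8% of all promoters. The C/EBP palindrome was present in 4 of the 7 of these that fell. It was not singled out by the search. The heat shock element was in 3 of 12 heat shock promoters (0.5% of all), and the hypoxia element in 7 of 16 HIF promoters (5.9%). The C/EBP-ATF element was in 6 of 20 stress response promoters (4.1%), and the E-box in 5 of 15 clock promoters (7.2%). The antioxidant element was in 8 of 16 (41.4%), the D-box in 1 of 15 (2.3%) and the AP-1 site in 0 of 16 (7.9%). These are matches of letters only, and no binding was measured.

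All values are expression levels on the log2 scale, so a difference of 1 is 2-fold. The spread of the deposited values differed between the times: the interquartile range over genes was 2.89 to 3.06 on the 0 h arrays and 1.82 to 2.13 on the 24 h arrays. The 6 arrays were therefore quantile normalized together. Time and any difference in how the arrays of each time were handled cannot be told apart. After normalization arrays of the same time correlated with r of at least 0.9865 across genes, and arrays of different times with r of 0.9282 to 0.9629. Times were separated on the first principal component, with 84.6% of the variance. On it 24 h replicate 4 lay nearest to the 0 h arrays, and its median absolute change per gene was 0.311 against 0.383 and 0.405 for replicates 1 and 2. Of 19938 genes, 11768 (59%) passed at an adjusted p below 0.05 (limma, Benjamini-Hochberg over all genes), 4681 (23.5%) higher and 7087 (35.5%) lower at 24 h. At a change of at least 2-fold as well, 1679 passed (8.42%), 495 higher (2.48%) and 1184 lower (5.94%). The median change over all genes was -0.09, and it was -0.34 when arrays were instead centred on their medians. The share of higher calls was 39.8% here, 46.6% of 15132 calls with the values as deposited and 29.7% of 14648 calls with median centring.

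Families that type II cells hardly express contributed to the higher calls. Of 1027 olfactory receptor genes 623 rose and 34 fell, with a median change of 0.44, and their median level was 4.48 at 0 h and 4.92 at 24 h, near the bottom of the scale. Among 44 keratin associated protein genes 31 rose and 3 fell. Of 347 zinc finger (Zfp) genes 36 rose and 208 fell, and of 77 mitochondrial ribosomal protein genes 2 rose and 63 fell, with medians of -0.42 and -0.65. When genes were split by level into 5 equal bins, 30.5% were higher and 19.9% lower in the lowest bin, and 17.9% were higher and 42.5% lower in the highest. These families were chosen after the data were seen, and a gene list's count has to be read against these shares. It has also to be read against those over all genes, 23.5% higher and 35.5% lower (19.7% and 24.5% in controls).

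Cebpa itself fell over the 24 h in Cebpa-deleted cells. Its level was 10.26, 10.31 and 10.10 at 0 h and 8.96, 8.56 and 8.56 at 24 h. The groups did not overlap, and the level at 24 h was 34.6% of that at 0 h (change -1.53, 95% interval -1.82 to -1.25, adjusted p = 2.78e-05). In controls the change was -0.26 (adjusted p = 0.0952), and the 2 changes differed by -1.28 (SE 0.17, adjusted p = 0.00293). For every genotype difference given here the 12 arrays of both genotypes were normalized and fitted together, and the difference is the change in Cebpa-deleted cells minus the change in controls. At 2 h the Cebpa-deleted arrays read 10.01, 9.05 and 9.48, so the most spread was at that time. Where the probes lie relative to the floxed part is not given, so the level need not show the full loss. Whether Cebpa was lower than in controls at 0 h was not tested. The mean level of the 6 measured C/EBP family members, Cebpa included, was similar at 0 h. It was 8.584 to 8.685 on control arrays and 8.496 to 8.622 on Cebpa-deleted arrays. At 24 h the family mean was 8.549 to 8.663 on control arrays and 8.186 to 8.409 on Cebpa-deleted arrays.

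Of the other C/EBP factors only Cebpd passed. Cebpd, which acts in acute inflammation, went from 8.19, 8.30 and 8.54 to 7.34, 7.70 and 8.25 (change -0.58, adjusted p = 0.0304). Its groups overlapped, and its call was lost without 0 h replicate 2 or 3 and without 24 h replicate 1 or 2. Cebpb, the family member of the acute phase, had a change of 0.17 (adjusted p = 0.236), and Cebpg, which lacks an activation domain, of -0.14 (adjusted p = 0.24). Their genotype differences were -0.30 (adjusted p = 0.175) and -0.43 (adjusted p = 0.109). Cebpe (0.14) and the stress-induced Ddit3 (0.20) did not pass. The values of Cebpb and Ddit3 were negative with the values as deposited (-0.38 and -0.14) and with median centring (-0.67 and -0.43). Of the 6 family members 0 rose and 2 fell, where over all genes 23.5% were higher and 35.5% lower.

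**Figure D1:**
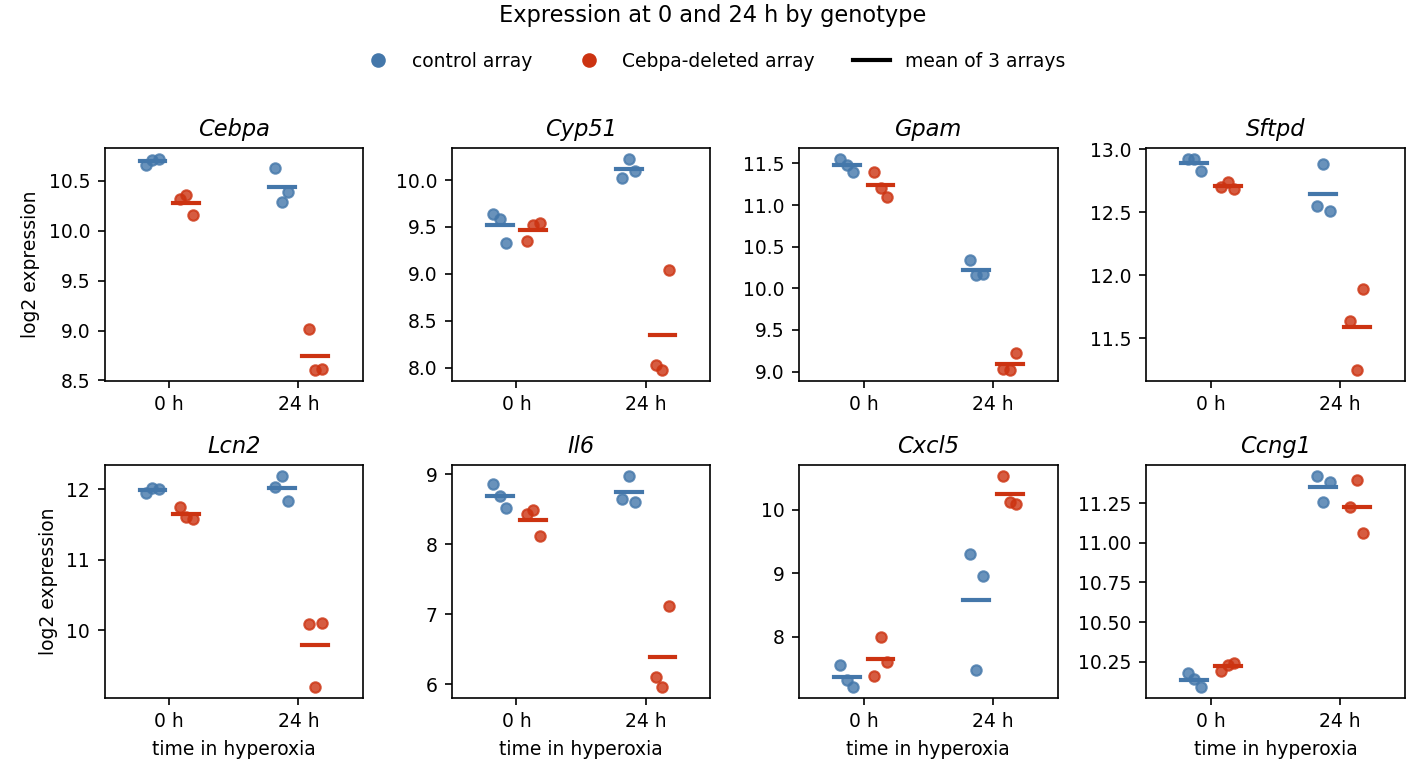
Expression of 8 genes (log2, vertical axis) on each of the 12 control and Cebpa-deleted arrays at 0 and 24 h (horizontal axis). Points are arrays and bars the mean of 3, and the vertical axes differ and do not start at 0. Cebpa, Cyp51, Gpam, Sftpd, Lcn2 and Il6 lie lower on all 3 Cebpa-deleted arrays at 24 h than on any array of either genotype at 0 h, Cxcl5 lies higher, and Ccng1 is higher at 24 h in both genotypes.

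Genes of cholesterol synthesis fell together in Cebpa-deleted cells. Of 17 measured enzymes 0 rose, 16 fell and 1, Pmvk, did not pass, against 35.5% lower over all genes. Their median change was -0.85, against -0.09 over all genes and 0.31 for the same enzymes in controls, in which 6 rose and 2 fell (19.7% of all genes were higher and 24.5% lower there, 44.2% in all). The sterol reductase Tm7sf2 went from 8.81, 8.93 and 8.91 to 6.88, 6.92 and 7.55. This left 29.4% of its 0 h level (change -1.76, SE 0.16, adjusted p = 4.1e-05). Nsdhl, which removes a methyl group from the sterol ring, went from 10.21, 10.14 and 10.13 to 8.25, 8.23 and 9.14 (-1.62, adjusted p = 0.000196). Lanosterol synthase (Lss), which closes the ring, went from 9.41, 9.48 and 9.54 to 8.08, 7.96 and 9.04 (-1.12, adjusted p = 0.00287). Lanosterol demethylase (Cyp51) went from 9.29, 9.46 and 9.49 to 8.00, 7.96 and 8.98 (-1.1, adjusted p = 0.00294). In all 4 the times did not overlap, and 24 h replicate 4 was the highest array of its time. Hmgcs1 fell by 0.65 (adjusted p = 0.00244).

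The changes of these enzymes differed between the genotypes. Cyp51 rose in controls, by 0.60 (adjusted p = 0.0358), and its 2 changes differed by -1.72 (SE 0.30, adjusted p = 0.00547). The corresponding differences were -1.66 for Lss (adjusted p = 0.00717), -1.30 for Nsdhl (adjusted p = 0.0101), -1.21 for Tm7sf2 (adjusted p = 0.00633) and -0.93 for Hmgcs1 (adjusted p = 0.00521). The difference was called lower in 13 of the 17 enzymes and higher in 0, where over all genes 15.4% differed, 3.95% higher and 11.5% lower. The median difference was -1.11, against -0.06 over all genes. With each array left out in turn, 12 to 17 enzymes fell in Cebpa-deleted cells and 12 to 15 were called lower in the difference.

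**Figure D2:**
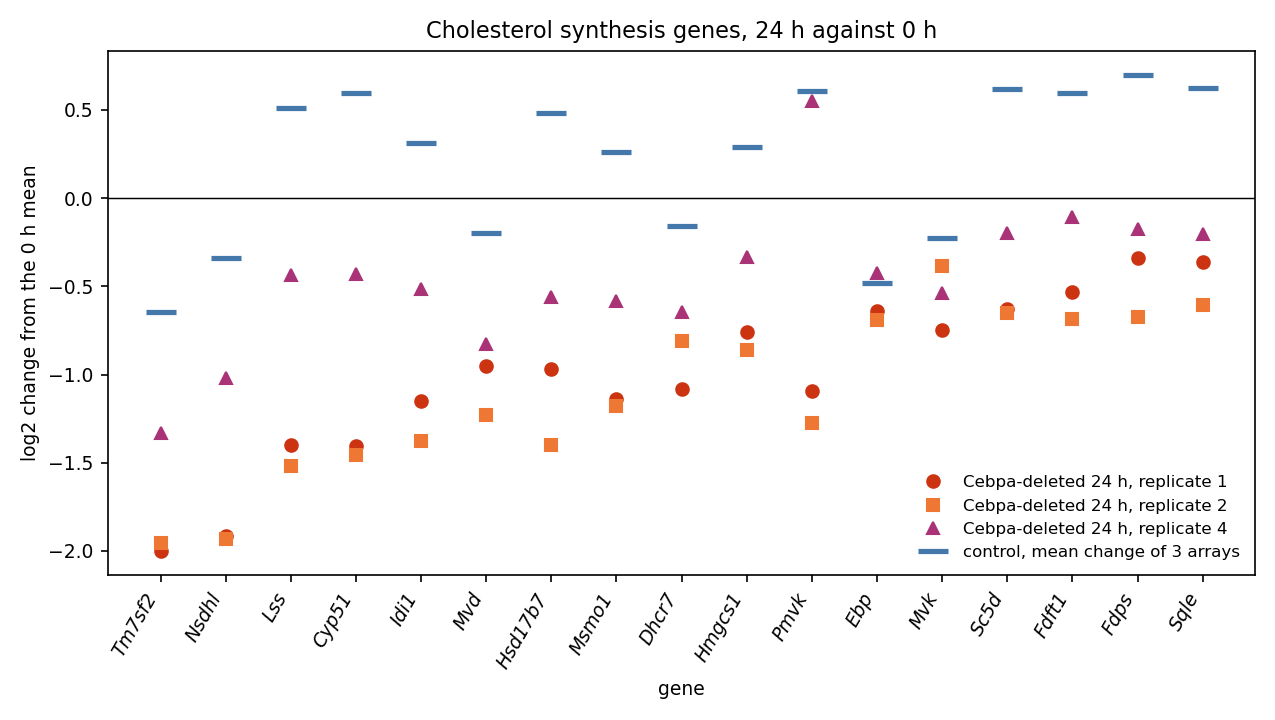
Log2 change (vertical axis) from the mean of the 0 h arrays for 17 cholesterol synthesis enzymes (horizontal axis). Symbols are the 3 Cebpa-deleted arrays at 24 h and bars the mean change of controls. Symbols come from the 6 Cebpa-deleted arrays normalized together, and bars from the 12 arrays of both genotypes normalized together. All symbols lie below 0 except Pmvk in replicate 4, and 13 of the 17 genotype differences were called lower.

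Fatty acid synthesis, which supplies the acyl chains of surfactant phospholipid, was lower as well. Of 18 measured genes 1 rose (the elongase Elovl6, by 0.40), 15 fell and 2 did not pass, with a median of -0.67 (controls -0.28, 2 higher and 10 lower). Over all genes 23.5% were higher and 35.5% lower (19.7% and 24.5% in controls). ATP citrate lyase (Acly), which makes the acetyl-CoA used in synthesis, went from 11.81, 11.68 and 11.65 to 10.42, 10.37 and 10.71 (change -1.21, adjusted p = 4.28e-05). The desaturase Fads2 (-1.29, adjusted p = 4.06e-05) and the elongase Elovl1 (-1.23, adjusted p = 2.56e-05) fell by similar amounts. Insig1, the sterol sensor that holds SREBP in the endoplasmic reticulum and is itself an SREBP target, went from 11.48, 11.51 and 11.62 to 10.40, 10.15 and 10.95 (-1.04, adjusted p = 0.000834). All these genes were separated by time. In controls the change of Insig1 was 0.14 (adjusted p = 0.479), and the genotype difference was -1.16 (adjusted p = 0.00618). Over the list 9 genes were called lower in the genotype difference and 0 higher (median -0.53), and 5 were lower without control 0 h replicate 3, control 24 h replicate 1, or Cebpa-deleted 24 h replicate 1 or 2. Over all genes 11.5% were called lower in the difference and 3.95% higher.

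Of 19 genes of glycerolipid synthesis and lipid droplets 2 rose (Dgat1 and Lpin2, by 0.52 and 0.36) and 11 fell. The shares over all genes were 23.5% higher and 35.5% lower. The list's median was -0.42, against 0.10 in controls. The largest fall was of Gpam, the mitochondrial acyltransferase that starts glycerolipid synthesis. It went from 11.36, 11.16 and 11.06 to 8.97, 8.96 and 9.16, or 22.3% of the 0 h level (change -2.16, SE 0.11, adjusted p = 9.88e-06). Gpam fell in controls too, by 1.26 (adjusted p = 2.86e-06), and fell more in Cebpa-deleted cells by the difference of -0.89 (adjusted p = 0.00368). Fabp5, a fatty acid carrier of type II cells, went from 10.82, 10.90 and 10.72 to 9.48, 8.99 and 9.48 (-1.49, adjusted p = 4.12e-05), with -0.08 in controls (adjusted p = 0.691) and a difference of -1.40 (adjusted p = 0.00383). Lpcat1, which remodels the main surfactant phospholipid, fell by 1.06 (adjusted p = 4.06e-05) and Agpat2, the next acyltransferase of the pathway, by 1.02 (adjusted p = 0.000138). Their genotype differences were -0.69 (adjusted p = 0.00514) and -0.68 (adjusted p = 0.0172). The difference was called lower in 11 of the 19 genes and higher in 0, against 11.5% and 3.95% over all genes.

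Genes that burn fatty acids also fell. Of 17 genes of fatty acid oxidation 2 rose and 12 fell, with a median of -0.59 (controls -0.17). The counts of this paragraph stand beside shares over all genes of 23.5% higher and 35.5% lower. Hadh fell by 1.13 (adjusted p = 3.48e-05), the carnitine carrier Slc25a20 by 1.10 (adjusted p = 0.000335) and the peroxisomal Ehhadh by 1.10 (adjusted p = 0.000201). Pdk4, the kinase that shuts pyruvate dehydrogenase when fat is used, went the other way, from 9.52, 9.17 and 8.74 to 10.48, 10.19 and 10.19 (1.15, adjusted p = 0.000504). Its genotype difference was 0.94 (adjusted p = 0.0167), and both calls of Pdk4 were lost with median centring (0.23 and 0.49). The other rise was of Ppargc1a (0.72), a coactivator of mitochondrial genes. In the respiratory chain 0 of 19 genes rose and 12 fell (median -0.44, controls -0.21), among them Cox7a2 of complex IV (-1.36, adjusted p = 2.95e-05) and Sdhb of complex II (-1.14, adjusted p = 0.000196).

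The surfactant protein genes that define type II cells read near the top of the array range at both times, where an array can compress differences. The surfactant protein gene Sftpc went from 14.22, 14.22 and 14.16 to 13.91, 13.89 and 14.12 (change -0.23, adjusted p = 0.0699). Sftpb had a change of -0.24 (adjusted p = 0.0627), and its 24 h range of 13.18 to 13.36 lay just below its 0 h range of 13.41 to 13.59. Neither passed, and their genotype differences were -0.10 (adjusted p = 0.576) and -0.20 (adjusted p = 0.24). The collectin genes, whose products bind microbes, fell: Sftpa1 went from 14.04, 14.04 and 14.09 to 13.53, 13.48 and 13.57 (-0.53, adjusted p = 0.000731). Sftpd went from 12.67, 12.71 and 12.65 to 11.59, 11.21 and 11.86, or 46% of the 0 h level (-1.12, adjusted p = 0.000214). In both genes every 24 h array lay below every 0 h array, and their genotype differences were -0.43 (adjusted p = 0.0183) and -0.87 (adjusted p = 0.0138). Abca3, the lipid pump of the lamellar body, fell by 0.78 (adjusted p = 0.000337). The surfactant genes were picked for their function, outside the rule for named genes and after their values were seen.

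Among 23 type II cell markers 18 fell, 1 rose and 4 did not pass, where over all genes 35.5% were lower and 23.5% higher. The median of the markers was -0.75 (controls -0.23, 2 higher and 9 lower). Chil1, a chitinase-like secreted protein, had the largest fall, from 11.60, 11.55 and 12.30 to 9.76, 8.89 and 9.47 (change -2.45, adjusted p = 5.19e-05). In controls its change was -0.29 (adjusted p = 0.548), and the genotype difference of -2.14 (adjusted p = 0.0182) was lost without Cebpa-deleted 24 h replicate 2. Il33, an alarmin cytokine, went from 11.52, 11.41 and 11.28 to 8.86, 8.78 and 9.38 (-2.40, adjusted p = 1.34e-05). It also fell in controls, by 1.5 (adjusted p = 1.85e-05), and the call of its difference of -0.88 (adjusted p = 0.022) was lost without control 24 h replicate 1 or Cebpa-deleted 24 h replicate 1 or 2. Napsa, the protease that processes pro-SP-B, fell by 1.49 (adjusted p = 0.000104), with a difference of -0.85 (adjusted p = 0.0185). The marker that rose was Dlk1 (0.83). The genotype difference was called lower in 17 of 23 markers and higher in 0 (11 without control 0 h replicate 3 or Cebpa-deleted 24 h replicate 1, and 10 without Cebpa-deleted 24 h replicate 2). Over all genes 11.5% were called lower in the difference and 3.95% higher. The mean level of the list was 12.17 to 12.20 on the 0 h arrays and 11.21 to 11.50 on the 24 h arrays. In RNA of a cell isolate, fewer cells of a type and less RNA per cell cannot be told apart.

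Markers of type I cells fell more often than they rose in Cebpa-deleted cells, and rose more often than they fell in controls. Of 18 measured, 1 rose (Sema3e, by 0.42) and 9 fell in Cebpa-deleted cells (median -0.52), while in controls 7 rose and 2 fell (median 0.48). Falls outnumbered rises over all genes too, with 23.5% higher and 35.5% lower in Cebpa-deleted cells and 19.7% and 24.5% in controls. The genotype difference was called lower in 10 of the 18 markers and higher in 0, with a median of -0.89. Over all genes 11.5% were called lower in the difference and 3.95% higher. Rtkn2, a marker of type I cells, went from 7.53, 7.57 and 9.10 to 5.79, 5.57 and 6.51 (change -2.11, adjusted p = 0.00129). Its change in controls was 0.68 (adjusted p = 0.26), and the difference was -2.87 (SE 0.67, adjusted p = 0.0155). Igfbp2, an insulin-like growth factor binding protein, went from 7.42, 7.23 and 8.73 to 6.74, 6.9 and 6.95 (-0.93, adjusted p = 0.0282) and rose in controls by 1.40 (adjusted p = 0.00601), with a difference of -2.38 (adjusted p = 0.0107). In both genes 0 h replicate 3 was the highest array. Without it the change of Igfbp2 was -0.44, and its call was lost without any 1 of the 3 arrays at 24 h. The mean level of the list was 10.12 on 0 h replicate 3 and 9.30 on the other 0 h arrays, against 8.92 to 9.15 at 24 h. Without 0 h replicate 3 the list's median change was -0.24. With single arrays left out its falls numbered 4 to 11, with 4 without 24 h replicate 1 or 2. Its lower differences numbered 4 to 12, with 5 without control 0 h replicate 1 or Cebpa-deleted 0 h replicate 3, and 4 without control 0 h replicate 2, control 24 h replicate 2 or Cebpa-deleted 24 h replicate 1 or 2. Cldn18, the tight junction protein of the alveolus, fell by 1.38 (adjusted p = 6.58e-05), with a difference of -0.88 (adjusted p = 0.00746). Ager, the most abundant type I product, fell by 0.95 (adjusted p = 0.000147), with a difference of -0.49 that did not pass (adjusted p = 0.0511).

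**Figure D3:**
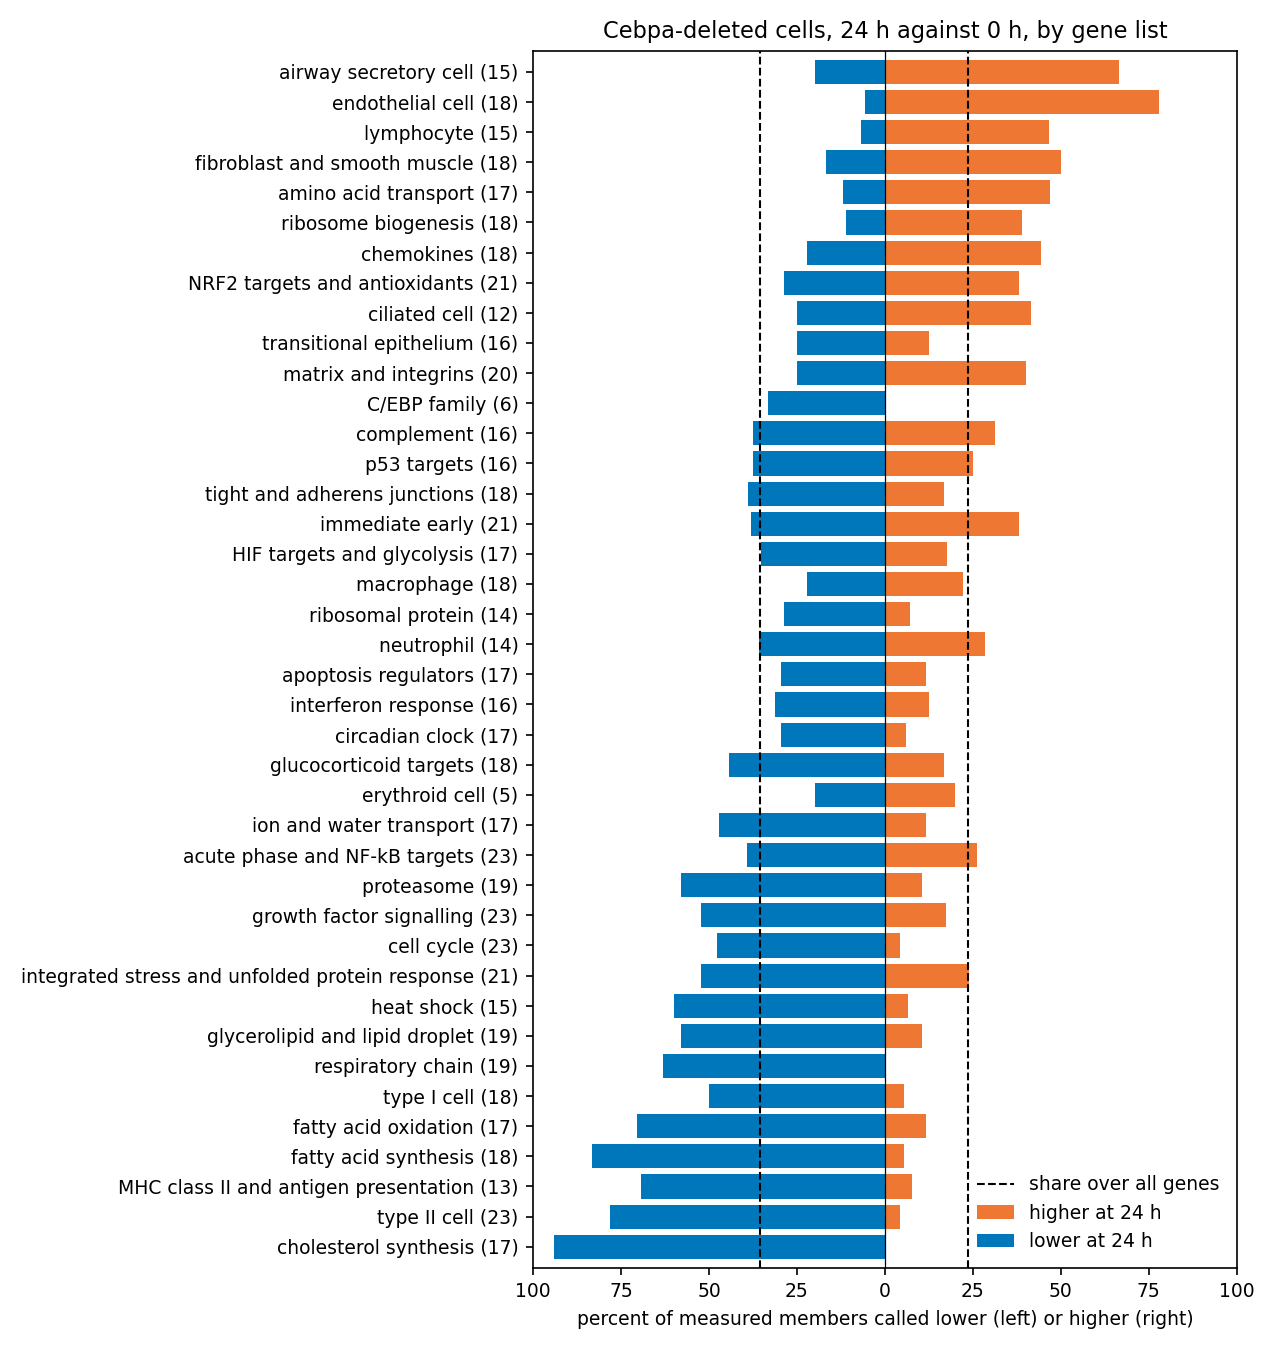
Percent of measured members of each of 40 gene lists (number measured in brackets) that were called lower (left) or higher (right) at 24 h than at 0 h in Cebpa-deleted cells. Dashed lines are the shares over all genes, 35.5% lower and 23.5% higher; cholesterol synthesis, at the bottom, had 16 of 17 members lower and 0 higher.

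Of 23 acute phase and NF-κB target genes 6 rose and 9 fell (median -0.21; controls 0.05), which is near the shares over all genes of 23.5% and 35.5%, so the single genes are described here and not the list. Itih4, a plasma protein of the acute phase, went from 11.11, 10.93 and 10.76 to 8.11, 7.53 and 8.83 (change -2.78, adjusted p = 4.39e-05). Lipocalin 2 (Lcn2), which binds bacterial siderophores, went from 11.71, 11.57 and 11.54 to 10.04, 9.13 and 10.04 (-1.87, adjusted p = 0.000105). The cytokine Il6 went from 8.39, 8.44 and 8.10 to 6.18, 6.03 and 7.16 (-1.85, adjusted p = 0.000246). All 3 were lower on every 24 h array. In controls Lcn2 and Il6 had changes of 0.03 (adjusted p = 0.918) and 0.05 (adjusted p = 0.88). The genotype differences were -2.03 for Itih4 (adjusted p = 0.0074), -1.88 for Lcn2 (adjusted p = 0.00309) and -2.0 for Il6 (adjusted p = 0.00488). Saa2, an acute phase apolipoprotein with near-identical copies, rose by 1.65 (adjusted p = 1.02e-05) from a low level of 4.07 to 4.20, and by 1.66 in controls (adjusted p = 5.65e-07). The difference between genotypes was called lower in 5 members and higher in 0, against 11.5% and 3.95% over all genes.

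Of 18 chemokine genes 8 rose and 4 fell (5 rose without 24 h replicate 2), and their median of 0.15 was 0.09 to 0.26 with single arrays left out (0.09 without 0 h replicate 2, 0.26 without 0 h replicate 3, 0.23 without 24 h replicate 1) and -0.29 with median centring. Cxcl5, which attracts neutrophils, went from 7.40, 7.97 and 7.61 to 10.47, 10.07 and 10.04, a 5.79-fold rise (change 2.53, SE 0.16, adjusted p = 1.34e-05). It rose in controls by 1.22 (adjusted p = 0.0114), and the difference of 1.38 did not pass (adjusted p = 0.0696; 0.83 without control 24 h replicate 2). Ccl20, which attracts lymphocytes and dendritic cells, rose by 1.7 (adjusted p = 1.23e-05) and in controls by 1.42 (adjusted p = 5.04e-05). Cxcl3 fell by 0.94 (adjusted p = 0.000195). In the complement list 5 of 16 rose and 6 fell (3 fell without 24 h replicate 2). The counts of this paragraph stand beside shares over all genes of 23.5% higher and 35.5% lower. Cd59a, which shields cells from the membrane attack complex, fell by 1.80 (adjusted p = 0.000426). C6 and C7, both parts of that complex, moved apart: C6 went from 9.92, 9.69 and 9.73 to 8.24, 7.87 and 8.32 (-1.63, adjusted p = 2.56e-05) and C7 from 5.98, 5.84 and 5.88 to 7.02, 7.27 and 7.37 (1.32, adjusted p = 2.89e-05). The genotype difference of C6 was -1.25 (adjusted p = 0.00633). Interferon response genes were near the background (2 of 16 rose and 5 fell; without 0 h replicate 3 the falls were 3, and without 24 h replicate 2 the counts were 4 and 3), with Mx1 and Ifit1 lower by 0.74 and 0.69 (adjusted p = 0.00402 and 0.00857). Both of these calls were lost with the values as deposited.

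Genes of antigen presentation by MHC class II, which type II cells display, fell in both genotypes. Of 13 measured genes 1 rose and 9 fell (median -0.68), and in controls 1 rose and 7 fell (median -0.39). Over all genes 23.5% were higher and 35.5% lower (19.7% and 24.5% in controls). H2-Ab1, a chain of the class II molecule, went from 12.43, 12.66 and 12.60 to 10.74, 10.71 and 11.52 (change -1.57, adjusted p = 0.00015). It fell in controls by 1.02 (adjusted p = 0.000711), and the genotype difference of -0.54 did not pass (adjusted p = 0.164). The peptide loading chain H2-DMa fell by 1.81 (adjusted p = 0.000129) and H2-Aa by 1.18 (adjusted p = 0.00011). Nlrc5, an activator of MHC class I genes, rose from 8.77, 8.38 and 8.72 to 10.78, 10.99 and 10.28 (2.06, adjusted p = 3.13e-05), with a difference of 1.38 (adjusted p = 0.00368). The features of Nlrc5 disagreed: with their mean in place of the brightest, its change was 0.47 and the difference of 0.24 did not pass.

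Of 21 targets of NRF2, the factor that answers oxidants, and other antioxidant genes 8 rose and 6 fell in Cebpa-deleted cells, while 11 rose and 1 fell in controls. Over all genes 23.5% were higher and 35.5% lower (19.7% and 24.5% in controls). The list's median was 0.14 in Cebpa-deleted cells (0.08 without 0 h replicate 1) and turned negative with the values as deposited (-0.48) and with median centring (-0.77). Metallothionein 2 (Mt2), which binds metals, went from 12.37, 12.29 and 12.13 to 10.95, 11.32 and 11.20 (change -1.11, adjusted p = 8.21e-05). Gpx1, the glutathione peroxidase of the cytosol, went from 10.94, 11.10 and 11.07 to 9.85, 9.59 and 10.38 (-1.1, adjusted p = 0.000568). Both were separated by time, with genotype differences of -0.82 (adjusted p = 0.00611) and -0.88 (adjusted p = 0.0167). The secreted peroxidase Gpx3 rose by 1.10 (adjusted p = 0.00017). The difference was called lower in 5 members of the list and higher in 0, against 11.5% and 3.95% over all genes.

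Of 16 targets of p53, the factor that answers DNA damage, 4 rose and 6 fell, near the shares over all genes of 23.5% higher and 35.5% lower. The other counts of this paragraph stand beside the same shares. Ccng1, a cyclin that p53 induces, went from 10.13, 10.17 and 10.18 to 11.19, 11.36 and 11.02 (change 1.03, adjusted p = 6.62e-05), and its call was lost with median centring (0.07). Phlda3, an inhibitor of Akt, rose by 0.87 (adjusted p = 9.74e-05). Both also rose in controls, by 1.22 (adjusted p = 2.15e-06 and 3.29e-06). The death gene Bbc3, which encodes Puma, fell by 1.04 (adjusted p = 0.000107) and Sesn2, an inhibitor of mTORC1, by 0.75 (adjusted p = 0.000724), with genotype differences of -0.62 (adjusted p = 0.0142) and -0.92 (adjusted p = 0.00434). In the integrated stress and unfolded protein response 5 of 21 rose and 11 fell (median -0.36; controls 0.14). Atf5, a factor of that response, rose by 0.89 (adjusted p = 8.39e-05; not called with median centring, 0.23). Manf, Atf3 and Sdf2l1 fell by 0.87, 0.81 and 0.80 (adjusted p = 0.000115, 0.00053 and 0.000445). Of 15 heat shock genes 1 rose and 9 fell: the inducible chaperone Hspa1a fell by 1.57 (adjusted p = 3.52e-05), the co-chaperone Chordc1 by 1.13 (adjusted p = 4.35e-05) and Hspb1 by 0.78 (adjusted p = 0.000743), the last with a genotype difference of -0.82 (adjusted p = 0.0153).

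Of 23 cell cycle genes 1 (Ccnd1, 0.53) rose and 11 fell, and in controls 0 rose and 10 fell. In Cebpa-deleted cells 52.2% of them were called, against 59% over all genes. The counts of this paragraph stand beside shares over all genes of 23.5% higher and 35.5% lower (19.7% and 24.5% in controls). The spindle checkpoint kinase Bub1 went from 7.97, 8.18 and 7.74 to 5.87, 5.31 and 5.87 (change -2.28, adjusted p = 2.01e-05), with a genotype difference of -1.38 (adjusted p = 0.00577). Ccne2, which starts S phase, fell by 1.35 (adjusted p = 0.000197) and the mitotic kinase Cdk1 by 1.0 (adjusted p = 0.000148). Growth factor signalling had 4 of 23 higher and 12 lower, including Fgfr2, the FGF receptor that type II cells need (-0.89, adjusted p = 0.00011), and its feedback inhibitor Spry1 (-1.04, adjusted p = 0.000189). Among 20 matrix and integrin genes 8 rose and 5 fell (3 without 0 h replicate 3 or 24 h replicate 1 or 2), and their median of 0.07 (0.01 without 0 h replicate 2, 0.22 without 0 h replicate 3 and 0.17 without 24 h replicate 1) became -0.29 with the values as deposited and -0.58 with median centring. The integrin Itga9 went from 10.69, 10.58 and 10.11 to 9.11, 8.40 and 9.14 (-1.58, adjusted p = 0.00022) and the laminin chain Lamb3 from 8.64, 8.58 and 8.73 to 7.33, 7.14 and 7.32 (-1.38, adjusted p = 1.75e-05). Their genotype differences were -1.40 (adjusted p = 0.00684) and -1.12 (adjusted p = 0.00293). Fibronectin (Fn1) rose by 1.09 (adjusted p = 4.7e-05).

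The proteasome had 2 of 19 higher (1 without 0 h replicate 1 or 3 or 24 h replicate 1 or 2) and 11 lower (6 lower without 0 h replicate 3 and 7 without 24 h replicate 2), and its Psmb2 fell by 0.97 (adjusted p = 0.000118). Ribosome biogenesis had 7 of 18 higher and 2 lower (4 without 24 h replicate 4), with a median of 0.17 that became -0.26 as deposited and -0.55 with median centring, and its largest change was the fall of the pseudouridine synthase Dkc1 by 1.20 (adjusted p = 2.85e-05). Amino acid transport had 8 of 17 higher and 2 lower (median 0.30, but -0.22 as deposited and -0.51 with median centring), and 5 were higher without 0 h replicate 3 or 24 h replicate 1. Its lower count was 1 without 0 h replicate 3 or 24 h replicate 2 and 4 without 24 h replicate 4. In it the carrier Slc38a4 fell by 1.55 (adjusted p = 0.00427). The leucine carrier Slc7a5 rose by 0.80 (adjusted p = 0.000373), a value that was -0.12 with median centring. Ion and water transport had 2 of 17 higher (1 without 0 h replicate 2 or 3 or 24 h replicate 1 or 4) and 8 lower (4 without 24 h replicate 1), led by the potassium channel subunit Kcne2 (-1.73, adjusted p = 3.29e-05). Of 18 glucocorticoid targets 3 rose and 8 fell, among them the sulfotransferase Sult1a1 (-1.89, adjusted p = 0.00075) and Tsc22d3 (-1.23, adjusted p = 0.000718). Immediate early genes had 8 of 21 in each direction (4 lower without 24 h replicate 1 or 2), with Fosb lower by 0.86 (adjusted p = 0.000106) and a genotype difference of -0.76 (adjusted p = 0.00538). Of 17 clock genes 1, Cry1, rose (0.82, adjusted p = 0.000143; not called with median centring, 0.02) and 5 fell (3 without 0 h replicate 2 or 24 h replicate 2), among them Cry2 (-0.74, adjusted p = 0.00106). Of 17 hypoxia (HIF) and glycolysis genes 3 rose and 6 fell, of 17 apoptosis regulators 2 and 5 (3 fell without 0 h replicate 2 or 3), of 18 junction genes 3 and 7, of 14 ribosomal protein genes 1 and 4, and of 16 transitional epithelium markers 2 and 4. In these lists in turn 52.9%, 41.2%, 55.6%, 35.7% and 37.5% were called in either direction, against 59% over all genes. All counts of this paragraph stand beside shares over all genes of 23.5% higher and 35.5% lower.

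Markers of other cells that an isolate can hold were counted as well, against shares over all genes of 23.5% higher and 35.5% lower. Of 18 endothelial markers 14 rose and 1 (Emcn, -0.62) fell, with a median of 0.53 that became 0.004 as deposited and -0.29 with median centring. Tek, the angiopoietin receptor, rose by 1.07 (adjusted p = 0.000255) and Eng by 0.91 (adjusted p = 0.000227), and neither was called with median centring. The mean level of the list was 8.81 to 9.02 on the 0 h arrays and 9.33 to 9.47 on the 24 h arrays. In controls 11 of these markers rose and 0 fell (median 0.48), and the genotype difference was called in 0 of 18. That difference compares changes, not levels. On the 12 arrays normalized together, the list's mean at 0 h was 7.914 to 8.147 on control and 8.855 to 9.065 on Cebpa-deleted arrays. At 24 h it was 8.143 to 8.819 and 9.371 to 9.512. Whether these levels differed between genotypes was not tested. Fibroblast and smooth muscle markers had 9 of 18 higher and 3 lower, or 1 lower without 0 h replicate 3 or 24 h replicate 1 or 2 (median 0.39; mean level 7.12 to 7.27 at 0 h and 7.60 to 7.64 at 24 h). The collagen chain Col1a2 went from 7.55, 7.56 and 7.53 to 9.44, 9.11 and 8.73 (change 1.55, adjusted p = 5.95e-05), and Col1a1 and the receptor Pdgfra rose by 1.45 (adjusted p = 0.00015) and 1.22 (adjusted p = 0.000268). The genotype difference of Pdgfra was 0.98 (adjusted p = 0.0147). That of Col1a2 was 0.86 (adjusted p = 0.021) and was not called as deposited or with median centring (0.55 and 0.36). In this list the difference was called higher in 5 members and lower in 1, and higher in 3 without Cebpa-deleted 0 h replicate 2, control 0 h replicate 3, control 24 h replicate 1, or Cebpa-deleted 24 h replicate 1 or 2. Over all genes 3.95% were called higher in the difference and 11.5% lower.

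Lymphocyte markers had 7 of 15 higher and 1, Gzmb (-0.79), lower, with a median of 0.49 against -0.07 in controls. Over all genes 23.5% were higher and 35.5% lower. Il7r, the interleukin 7 receptor of T cells, went from 7.06, 7.06 and 7.43 to 9.17, 9.33 and 7.92 (change 1.62, adjusted p = 0.00153), so 24 h replicate 4 lay near the 0 h range. The adhesion receptor Cd2 went from 7.57, 7.35 and 7.78 to 8.96, 9.18 and 8.65 (1.36, adjusted p = 9.38e-05). Their genotype differences were 1.99 (adjusted p = 0.00917) and 1.14 (adjusted p = 0.00818), the only 2 called in this list (5 without Cebpa-deleted 0 h replicate 3 and 4 without control 24 h replicate 1). Over all genes 3.95% were called higher in the difference and 11.5% lower. The list's mean level was 6.78 to 7.20 at 0 h and 7.27 to 7.49 at 24 h, and 4 markers rose without 0 h replicate 2.

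Airway secretory markers, from the cells in which Cebpa was also deleted, had 10 of 15 higher and 3 lower, or 1 lower without 24 h replicate 1 (median 0.71, but 0.31 as deposited and 0.02 with median centring; controls 0.07). The mucin Muc5b rose by 1.78 (adjusted p = 0.00119), the lectin Reg3g by 1.59 (adjusted p = 0.00688; 1.04 without 24 h replicate 4) and the secreted Bpifa1 by 1.53 (adjusted p = 0.00181), while the paraoxonase Pon1 fell by 1.35 (adjusted p = 3.47e-05). The defining marker Scgb1a1 had a change of 0.17, and the list's mean level was 9.48 to 9.79 at 0 h and 10.04 to 10.54 at 24 h. Ciliated cell markers had 5 of 12 higher and 3 lower (1 lower without 0 h replicate 1 or 24 h replicate 2), with the dynein chains Dnah9 and Dnah5 higher by 1.37 (adjusted p = 3.19e-05) and 1.29 (adjusted p = 6.23e-05). The genotype difference of Dnah9 was 0.80 (adjusted p = 0.0137; 0.41 and not called with median centring). Macrophage markers had 4 of 18 in each direction (1 higher without 0 h replicate 1 or 2, and 2 without 24 h replicate 1 or 2), with mean levels of 6.95 to 7.18 at 0 h and 6.74 to 6.97 at 24 h. Neutrophil markers had 4 of 14 higher and 5 lower (3 without 0 h replicate 3), including the fall of Retnlg by 1.22 (adjusted p = 0.000245), with mean levels of 5.74 to 5.96 and 5.65 to 5.75. Of 5 erythroid genes Alas2, the heme synthesis enzyme of red cells, fell by 1.05 (adjusted p = 0.00281). Of the macrophage, neutrophil and erythroid markers 44.4%, 64.3% and 40% were called in either direction. Over all genes 59% were called, 23.5% higher and 35.5% lower. The part that other cells have in the changes of epithelial and lipid genes was not tested.

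**Figure D4:**
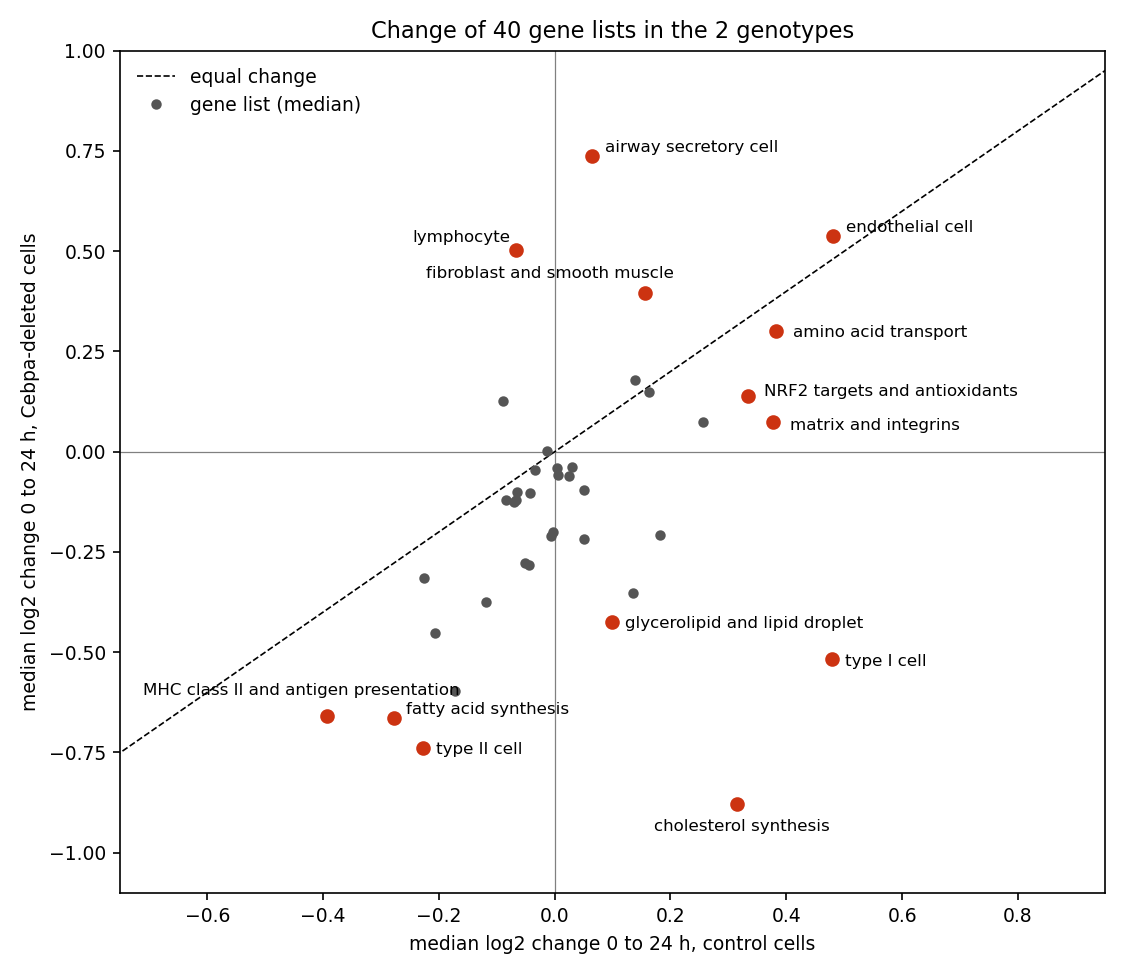
Median log2 change from 0 to 24 h of the members of each of 40 gene lists in control cells (horizontal axis) and in Cebpa-deleted cells (vertical axis), from the 12 arrays normalized together. Each point is a list, red points are named, and the dashed line marks equal change; cholesterol synthesis and type I cell lists lie at positive values in controls and negative ones in Cebpa-deleted cells. With median centring of the Cebpa-deleted arrays the endothelial, amino acid transport, NRF2 and matrix medians were negative.

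Among single genes the largest falls, by a rule that passes over predicted, receptor and small RNA genes and asks that the arrays of each time do not overlap, were headed by Alkal1, a ligand of the ALK receptor. Alkal1 went from 8.49, 8.93 and 8.30 to 5.29, 5.13 and 6.01, or 11.7% of the 0 h level (change -3.10, SE 0.23, adjusted p = 2.01e-05). Next came the mitochondrial ribosomal protein gene Mrpl42 (-2.85, adjusted p = 2.39e-05), the zinc finger gene Zfp931 (-2.78, adjusted p = 1.02e-05) and Itih4. Bex2, of a family of small adaptor proteins known from brain, went from 9.81, 9.68 and 9.59 to 6.99, 6.58 and 7.30 (-2.74, adjusted p = 1.23e-05). Its relatives Bex1 (-2.64, adjusted p = 0.000175) and Bex4 (-2.48, adjusted p = 0.00015) fell with it, and of 5 Bex genes 4 fell. The genotype difference of Bex2 was -1.79 (adjusted p = 0.00293). Zfp758 (-2.60, adjusted p = 2.96e-06) and Hnmt, which inactivates histamine (-2.49, adjusted p = 2.08e-05), were also among the 12 largest falls, with a genotype difference of -1.49 for Hnmt (adjusted p = 0.00333). Zfp931, Zfp758 and Mrpl42 averaged 3.58, 4.16 and 4.72 at 24 h, below the olfactory receptor median, so the sizes of their falls rest on values that may be background. Fabp1, a fatty acid carrier that averaged 4.33 at 24 h, fell by 2.37 (adjusted p = 1.23e-05) and in controls by 2.20 (adjusted p = 5.65e-07).

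The largest rises were of the Y-linked gene Srsy and the keratin associated protein gene Krtap5-3. Srsy went from 6.81, 7.02 and 6.74 to 9.76, 9.84 and 9.26 (change 2.76, adjusted p = 1.1e-05). Krtap5-3 went from 7.75, 7.46 and 7.56 to 10.55, 10.62 and 9.87 (2.76, adjusted p = 1.34e-05). Both have near-identical copies that the array may not tell apart. Tmem92, from an average of 4.04 at 0 h that may be background, rose by 2.58 (adjusted p = 2.96e-06), Krtap5-1 by 2.54 (adjusted p = 3.11e-05), Krtap5-2 by 2.26 (adjusted p = 6.37e-05) and Krtap1-3 by 2.23 (adjusted p = 4.1e-05). The folate carrier Slc19a1 rose by 2.28 (adjusted p = 2.29e-05), the phospholipase Plb1 by 2.14 (adjusted p = 2.83e-05) and Nyx by 2.04 (adjusted p = 3.62e-05). Averaged over each gene's features, the rises of Slc19a1 and Plb1 were 1.49 and 0.65.

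By genotype difference, 3072 genes were called, 787 higher and 2285 lower. The share of higher calls was 25.6%, and it was 37.2% of 4441 with the values as deposited and 11% of 6060 with median centring. Leaving out control 0 h replicates 1, 2 and 3 in turn gave 2035, 1741 and 1966 calls, and the count was 1701 without Cebpa-deleted 0 h replicate 2, 2032 without control 24 h replicate 1, and 1762, 1713 and 5536 without Cebpa-deleted 24 h replicates 1, 2 and 4. Besides Rtkn2 and Igfbp2 the lowest differences were of Scel, sciellin of stratified and type I epithelium (-2.54, adjusted p = 0.00528), the guidance factor Sema3a (-2.47, adjusted p = 0.00872), Cped1 (-2.44, adjusted p = 0.016) and the gluconeogenic enzyme Fbp2 (-2.25, adjusted p = 0.0113). Each of these 4 rose in controls, by 1.17, 1.02, 1.65 and 1.73 (adjusted p = 0.00846, 0.0284, 0.0052 and 0.0012). In Cebpa-deleted cells Scel went from 6.07, 6.35 and 7.23 to 5.07, 5.31 and 5.16 (change -1.37, adjusted p = 0.00107) and Sema3a fell by 1.38 (adjusted p = 0.00161). Cped1 (-0.75) and Fbp2 (-0.48) did not pass there. The highest difference was of the deubiquitinase Usp17ld (2.11, adjusted p = 0.00595), which fell by 0.62 (adjusted p = 0.0125) and fell by 2.77 in controls (adjusted p = 1.04e-05). Il7r, the chromatin organizer Satb1 of T cells (1.93, adjusted p = 0.0154), Srsy (1.87, adjusted p = 0.00367), the immunoglobulin A heavy chain Igha (1.69, adjusted p = 0.0103) and Krtap5-3 (1.61, adjusted p = 0.00329) followed. Satb1 went from 8.42, 8.24 and 8.77 to 10.73, 10.49 and 9.38, and Igha from 8.12, 7.67 and 7.70 to 9.16, 9.53 and 8.66. In both, as in Il7r, 24 h replicate 4 was the lowest array of its time.

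The time between divides these changes. With the 9 Cebpa-deleted arrays at 0, 2 and 24 h normalized together, 6118 genes (30.7%) differed between 2 and 0 h, 3092 higher (15.5%) and 3026 lower (15.2%), and 3378 (16.9%) between 24 and 2 h, 692 higher (3.47%) and 2686 lower (13.5%). The number between 24 and 2 h was 922 to 4605 with single arrays left out: 1815 and 1590 without 2 h replicates 2 and 3, and 961 and 922 without 24 h replicates 1 and 2. The share of higher calls from 2 to 24 h was 20.5%, 30.9% as deposited and 7.26% with median centring. These comparisons share the 2 h arrays, so their values are given side by side only. Cholesterol synthesis had 9 of 17 genes lower at 2 h than at 0 h (median -0.49) and 2 lower at 24 h than at 2 h (median -0.26). Cyp51 read 8.84, 8.52 and 7.60 at 2 h, with a change of -1.05 from 0 to 2 h (adjusted p = 0.0251) and of -0.03 from 2 to 24 h (adjusted p = 0.951). Type II cell markers had 4 of 23 lower and 2 higher at 2 h (median -0.21), and 16 lower and 0 higher from 2 to 24 h (median -0.54). Chil1 read 12.61, 11.27 and 10.53 at 2 h and fell by 2.14 from 2 to 24 h (adjusted p = 0.00957). Of the 13 antigen presentation genes 1 was lower at 2 h and 8 from 2 to 24 h (medians 0.01 and -0.57). H2-Ab1 fell by 1.13 from 2 to 24 h (adjusted p = 0.0077). Bex2 changed mostly before 2 h, by -2.24 (adjusted p = 0.000464), against -0.46 afterwards (adjusted p = 0.255). Saa2 also rose before 2 h, by 1.60 (adjusted p = 6.17e-05). Lymphocyte markers had 5 of 15 higher at 2 h and 0 called in either direction from 2 to 24 h, while Cxcl5 rose by 0.86 to 2 h (adjusted p = 0.046) and by 1.64 more to 24 h (adjusted p = 0.00726). The sources used here do not say whether the arrays of the 3 times were processed together. The 0 h arrays had the wider range of deposited values, and the range at 2 h was closer to that at 24 h. For the step from 0 to 2 h, time and array handling therefore cannot be told apart.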

How the data were processed

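RNA of isolated type II cells from 18 samples was hybridised to expression arrays. The authors deposited log2 expression values made with RMA, per the submitters' processing notes. The RMA version, the genome build, any filters and which arrays the authors normalized as 1 set are not given in the sources used here. Of 35557 features 21789 had a single gene symbol, 1621 several and 12147 none in the platform annotation, and 21698 of the first kind matched RefSeq by Entrez ID. For each of 19938 genes the feature with the highest mean over the 18 arrays was kept, and 999 genes had more than 1.

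The 6 arrays at 0 and 24 h were quantile normalized and tested in limma 3.58.1 (R 4.3.3) with lmFit and eBayes, two-sided, with Benjamini-Hochberg adjustment over all genes and a threshold of 0.05. Control changes and genotype differences came from the 12 arrays of both genotypes normalized together, and steps through 2 h from the 9 Cebpa-deleted arrays. Intervals are at 95%. Groups hold 3 arrays, which limits the precision. The tests were tested on simulated data. Figures were drawn with matplotlib 3.10.9.

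The members and gene lists were chosen with earlier results of these data known. Named genes were the C/EBP family, up to 4 called members of each list by absolute change, the 12 largest falls and rises whose arrays did not overlap, leaving out predicted, RIKEN, olfactory and vomeronasal receptor and small RNA genes, and the 6 largest genotype differences each way. Trdn, a rise within that rule, was left out. The surfactant genes, Hmgcs1 and members named as exceptions to a list's direction lie outside the rule, and these and the gene families were chosen after their values were seen. Alternatives were the deposited values, median centring, quantile normalization of 18 arrays, ranks, the mean of a gene's features, the upper 60% of genes by level, trended and robust eBayes, a replicate block, all 18 arrays in the fit, a fold minimum of 2 and each array left out. Promoters and coordinates are RefSeq's, in GRCm38.p6.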

Additional observations from a re-analysis of the deposited data

Results flagged for a closer look

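For each gene here the change from 0 to 24 h differed between Cebpa-deleted and control cells by the test of the difference itself (limma, 12 arrays, adjusted p below 0.05), and the value is the Cebpa-deleted change minus the control change on the log2 scale. Of the 58 named genes with a difference given, 50 passed, and 5 of these (Agpat2, Pdk4, Il33, Col1a2 and Dnah9) did not when all 18 arrays were in the fit. Named genes include the largest differences, so their share is not a background.

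Epithelial genes had differences of -2.87 (Rtkn2), -2.54 (Scel), -2.38 (Igfbp2), -2.14 (Chil1), -0.88 (Cldn18), -0.88 (Il33), -0.87 (Sftpd), -0.85 (Napsa) and -0.43 (Sftpa1). Sterol and lipid genes had differences of -1.72 (Cyp51), -1.66 (Lss), -1.40 (Fabp5), -1.30 (Nsdhl), -1.21 (Tm7sf2), -1.16 (Insig1), -0.93 (Hmgcs1), -0.89 (Gpam), -0.69 (Lpcat1), -0.68 (Agpat2) and 0.94 (Pdk4). Cebpa itself had -1.28.

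Host defence genes had differences of -2.03 (Itih4), -2.0 (Il6), -1.88 (Lcn2), -1.25 (C6) and 1.38 (Nlrc5). Stress and cycle genes had -1.38 (Bub1), -0.92 (Sesn2), -0.88 (Gpx1), -0.82 (Mt2), -0.82 (Hspb1), -0.76 (Fosb) and -0.62 (Bbc3). Adhesion genes had -1.40 (Itga9) and -1.12 (Lamb3).

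Some markers of other cells had higher differences, 1.99 (Il7r), 1.14 (Cd2), 0.98 (Pdgfra), 0.86 (Col1a2) and 0.80 (Dnah9). The difference was called higher in 2 of 15 lymphocyte, 5 of 18 fibroblast and smooth muscle and 3 of 12 ciliated markers. It was called lower in 0, 1 and 0 of these. Over all genes 3.95% were called higher in the difference and 11.5% lower. Of 18 endothelial and 14 neutrophil markers 0 were called. Of 18 macrophage markers 0 were higher and 1 lower, and of 15 airway secretory markers 2 were higher and 1 lower. The remaining genes were Sema3a (-2.47), Cped1 (-2.44), Fbp2 (-2.25), Bex2 (-1.79), Hnmt (-1.49), Krtap5-3 (1.61), Igha (1.69), Srsy (1.87), Satb1 (1.93) and Usp17ld (2.11).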

How the results depend on the processing

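Falls of Cebpa, Gpam, Tm7sf2, Nsdhl, Itih4, Lcn2 and Il6 kept their direction and their call under each alternative run. The number of genes called between 0 and 24 h was 11768, and 10063 to 12145 with single arrays left out, 7787 among the upper 60% of genes and 1679 with a 2-fold minimum. The genotype difference was called in 3072 genes, in 1701 to 5536 with single arrays left out, 6060 with median centring and 1813 with 18 arrays in the fit. The 24 h minus 2 h count of 3378 was 922 to 4605 with single arrays left out. The cause of these shifts was not tested.

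The replicate number as a block gave 11502 calls between 0 and 24 h and 5133 for the genotype difference. The Cebpa-deleted arrays at 0 and 24 h share 2 numbers, and their deviations correlated at 0.0769 and -0.13. Among the 12 arrays 15 pairs of different groups share a number, with correlations of -0.134 to 0.0786 and 0 above 0.1, so the numbers were not taken as pairs.

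With the values as deposited, Cebpb (-0.38) and Ddit3 (-0.14) turned negative, and list medians turned to -0.53 for transitional epithelium, 0.34 for neutrophils, 0.12 for erythroid cells, -0.48 for NRF2 targets, -0.22 for amino acid transport, -0.29 for matrix and -0.26 for ribosome biogenesis. With arrays centred on their medians, Cebpb (-0.67), Ddit3 (-0.43) and Slc7a5 (-0.12) were negative, and medians turned to -0.82 for transitional epithelium, -0.29 for endothelial cells, 0.055 for neutrophils, -0.77 for NRF2 targets, -0.29 for chemokines, -0.51 for amino acid transport, -0.58 for matrix and -0.55 for ribosome biogenesis. Among the upper 60% of genes the interferon median was 0.10. A further 28 of the 40 list medians moved by more than the spread between arrays with the values as deposited and 31 with median centring, so the size of a list's median depends on the scaling. The cause of these shifts and turns was not tested. With 18 arrays in the fit the changes of Usp17ld and Bpifa1 and the genotype differences of Agpat2, Pdk4, Il33, Col1a2 and Dnah9 were no longer called. With ranks within arrays 16 of the 125 named changes and 12 of the 58 named genotype differences were no longer called.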
